A study of Homo sapiens with 6 samples.

Results

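The RB family, the MuvB core of the DREAM complex, MYBL2 and FOXM1 were followed in A2780 cells after TH-588. The 10 genes were chosen by name and matched by Ensembl identifier among the 58336 genes of the deposited count table. They were the pocket proteins RB1, RBL1 and RBL2, the MuvB subunits LIN9, LIN37, LIN52, LIN54 and RBBP4, and the transcription factors MYBL2 and FOXM1. All 10 passed the filter on low counts, which left 15844 genes to test.

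A2780 is an established human ovarian cancer cell line, and TH-588 is an inhibitor developed against the nucleotide pool enzyme MTH1. Cells received the vehicle DMSO, or TH-588 at 6 µM for 48 h, with 3 replicates (A, B and C) of each. The sample titles give no time for DMSO. RNA was sequenced in 6 libraries. The comparison addressed what TH-588 does to the transcripts of this line. All 6 libraries came from the same line, with no second line and no other MTH1 inhibitor among them.

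Pocket proteins bind E2F transcription factors and hold cell cycle genes silent. In resting cells RBL2 (p130) or RBL1 (p107) joins E2F4 or E2F5, a DP partner and the MuvB core to form DREAM, which sits on cell cycle promoters as a repressor. When cells enter the cycle, cyclin-dependent kinases release the pocket protein, and the same MuvB core binds MYBL2 (B-Myb) and then FOXM1 to activate genes of G2 and mitosis. RBL1 and MYBL2 are themselves known targets of E2F.

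The promoters are shown because DREAM, E2F and MuvB read short motifs there. RefSeq windows on GRCh38.p14, from 250 bases before a start of transcription to 50 bases from it on, were given for 9 of the 10 genes, in 15 windows. FOXM1 had none. The RB1 window lies inside the gene, downstream of its annotated start. The E2F motif was searched as TTNNCGN, with every N standing for either C or G and for no other base. The CHR, the element that LIN54 contacts, was searched as TTNGAA, with the N standing for either T or C, and the CCAAT box by the letters of its name. Both strands were read, and overlapping matches were kept. In the sequences, which run 5′ to 3′ along the gene's own strand, capitals mark these matches. Of the 8 windows with an E2F motif, 5 are printed, chosen from genes whose RNA was lower after TH-588, and an RBL2 window without one is shown beside them. The other 3 are a further LIN54 window and both RBBP4 windows.
RBL1 (chr20:37095948-37096247, minus strand): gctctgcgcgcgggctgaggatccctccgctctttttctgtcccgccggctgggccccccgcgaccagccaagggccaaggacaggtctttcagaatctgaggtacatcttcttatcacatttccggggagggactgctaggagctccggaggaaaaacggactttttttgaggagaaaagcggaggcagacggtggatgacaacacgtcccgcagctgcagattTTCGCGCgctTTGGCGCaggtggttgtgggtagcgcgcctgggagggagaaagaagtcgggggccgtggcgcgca
LIN9, the second of 3 starts (chr1:226309454-226309753, minus strand): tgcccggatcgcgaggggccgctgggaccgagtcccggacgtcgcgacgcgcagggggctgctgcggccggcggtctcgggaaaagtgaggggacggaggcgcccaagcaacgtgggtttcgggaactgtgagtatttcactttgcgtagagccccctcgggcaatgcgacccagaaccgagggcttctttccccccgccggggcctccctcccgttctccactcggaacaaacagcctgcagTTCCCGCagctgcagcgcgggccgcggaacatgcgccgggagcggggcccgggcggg
LIN52 (chr14:74084706-74085005, plus strand): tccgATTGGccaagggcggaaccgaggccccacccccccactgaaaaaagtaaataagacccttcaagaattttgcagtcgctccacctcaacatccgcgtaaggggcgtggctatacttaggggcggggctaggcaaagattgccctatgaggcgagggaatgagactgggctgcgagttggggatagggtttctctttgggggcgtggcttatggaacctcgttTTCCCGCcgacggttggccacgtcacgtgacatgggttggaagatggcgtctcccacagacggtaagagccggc
LIN54, start 1 of 2 (chr4:83010774-83011073, minus strand): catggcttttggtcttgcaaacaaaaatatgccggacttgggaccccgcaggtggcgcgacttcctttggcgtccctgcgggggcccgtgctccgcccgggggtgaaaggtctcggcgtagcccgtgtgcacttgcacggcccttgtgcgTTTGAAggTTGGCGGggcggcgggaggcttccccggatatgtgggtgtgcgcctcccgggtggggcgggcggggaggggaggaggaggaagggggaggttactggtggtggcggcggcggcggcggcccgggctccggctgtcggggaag
MYBL2 (chr20:43666864-43667163, plus strand): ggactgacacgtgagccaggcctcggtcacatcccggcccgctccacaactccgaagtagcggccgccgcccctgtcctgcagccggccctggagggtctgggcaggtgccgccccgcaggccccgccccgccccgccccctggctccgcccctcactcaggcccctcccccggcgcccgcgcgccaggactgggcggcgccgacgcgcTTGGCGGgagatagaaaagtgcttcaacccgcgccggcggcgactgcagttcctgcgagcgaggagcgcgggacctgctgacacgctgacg
RBL2, start 1 of 2 (chr16:53434221-53434520, plus strand): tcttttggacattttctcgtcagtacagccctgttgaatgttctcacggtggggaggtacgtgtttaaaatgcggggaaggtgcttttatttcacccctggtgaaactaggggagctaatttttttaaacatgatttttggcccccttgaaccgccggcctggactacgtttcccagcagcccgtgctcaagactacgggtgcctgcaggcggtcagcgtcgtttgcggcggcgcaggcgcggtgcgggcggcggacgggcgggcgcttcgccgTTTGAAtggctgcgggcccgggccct

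With the start base counted as 0, RBL1 held E2F motifs at -25 to -19 and at -15 to -9, and MYBL2 held its E2F motif at -41 to -35. LIN54 held a CHR at -100 to -95 followed by an E2F motif at -92 to -86. An E2F motif and a CHR occurred together in 2.5% of the 35116 promoter windows. An E2F motif was found for 6 of the 9 genes with a window, namely RBL1, LIN9, LIN52, LIN54, RBBP4 and MYBL2, beside 27.2% of 27305 genes in all. A gene counted if any of its windows held the motif, and genes differ in their number of windows. The 9 genes include RB1, whose only window lies inside the gene. A CHR was found for RBL2, LIN9, LIN37 and LIN54, beside 19.5% of all genes, and a CCAAT box for RBL2, LIN37, LIN52 and RBBP4, beside 39.7%. RBBP4, whose RNA did not pass the test, also held E2F motifs, at -43 to -37 and, overlapping it on the other strand, at -40 to -34. Matches are a description of letters in these windows, not of bound factors.

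**Figure D1:**
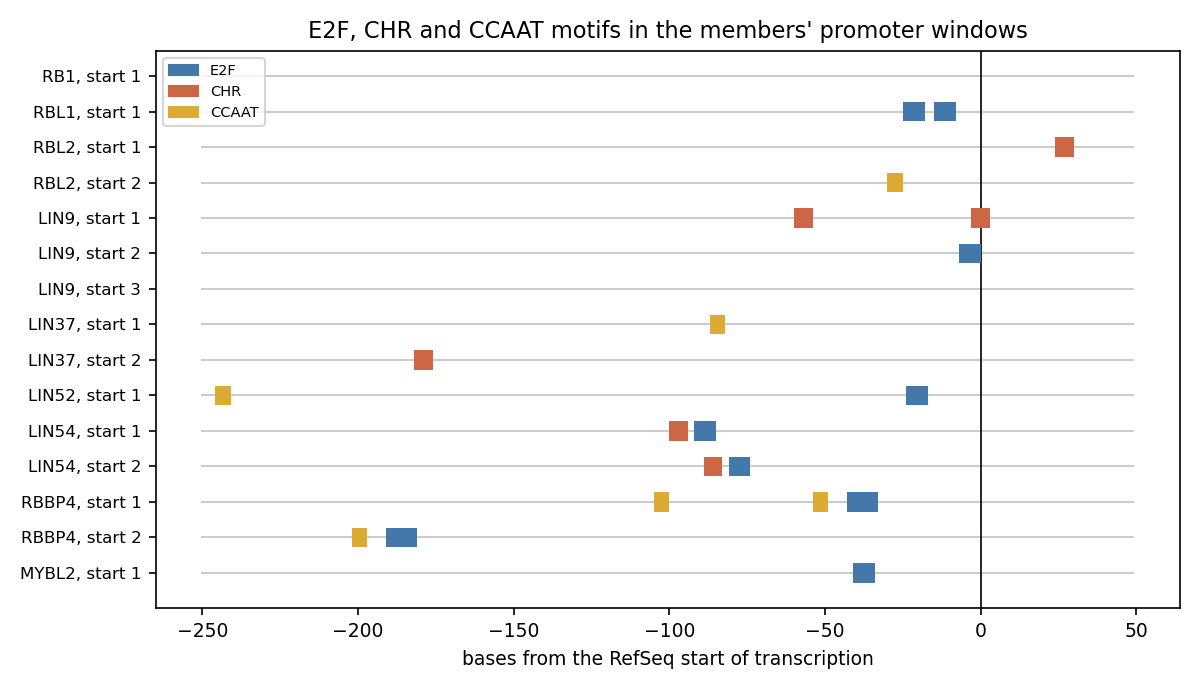
Positions of E2F, CHR and CCAAT motifs (boxes) in the 15 RefSeq promoter windows of 9 genes, in bases from the start of transcription (x axis). The E2F boxes of RBL1, MYBL2, LIN52, the second LIN9 start and the first RBBP4 start lie within 50 bases before the start. The CHR and E2F boxes of LIN54 lie beside each other.

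Total counts ran from 77634048 to 99074175 in 5 libraries and came to 28537837 in TH-588 replicate A. In that library the small nucleolar RNA SNORD3A took 21.9% of the counts, against 7.7% to 13.0% in the others. Of 8 epithelial and ovarian markers, KRT8, KRT19, CDH1, PAX8, WT1 and MUC16 were at or near 0 in both groups. EPCAM was at 0.644 ± 0.212 CPM with DMSO and 4.74 ± 0.35 CPM with TH-588, and KRT18 at 3.56 ± 0.373 and 6.54 ± 0.435 CPM (SD, n = 3 each). Both were higher with TH-588 (edgeR adjusted p = 8.23e-07 for EPCAM and 1.7e-04 for KRT18). Of the 6 markers of other cell types, VIM was at 3585.6 CPM with DMSO and 3796.0 CPM with TH-588, COL1A1 at 3.97 and 3.84 CPM, and DCN at 6.99 and 6.44 CPM. VIM, COL1A1 and DCN did not pass the test, while CDH2, at 14.4 and 11.1 CPM, was lower (edgeR adjusted p = 0.0146). PECAM1 and PTPRC, of endothelial and blood cells, were near 0. The part of depth, SNORD3A and these markers in the results was not tested.

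After TH-588, MYBL2, RBL1, LIN9, FOXM1, LIN54 and LIN52 fell and LIN37 rose, while RB1, RBL2 and RBBP4 did not pass the test. The falls ran from 3.42-fold for MYBL2 to 1.45-fold for LIN52, and the rise of LIN37 was 1.41-fold. SE is the standard error of a log2 fold change. Normalized counts are given as CPM, that is, counts scaled to a common total by the TMM library size, and adjusted p-values are those of edgeR's quasi-likelihood test with Benjamini-Hochberg adjustment over all 15844 genes. At an adjusted p under 0.05, 49.6% of all genes tested were called. Lower calls made up 25.3% of all genes and 6 of the 10 members, and higher calls 24.2% of all genes and 1 of the 10. The median log2 fold change was -0.62 over the members and 0.02 over all genes. The groups did not overlap in 7 of the 10 members, beside 57.7% of all genes. RNA came from whole cultures, so fewer cycling cells and less RNA per cell cannot be told apart.

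**Figure D2:**
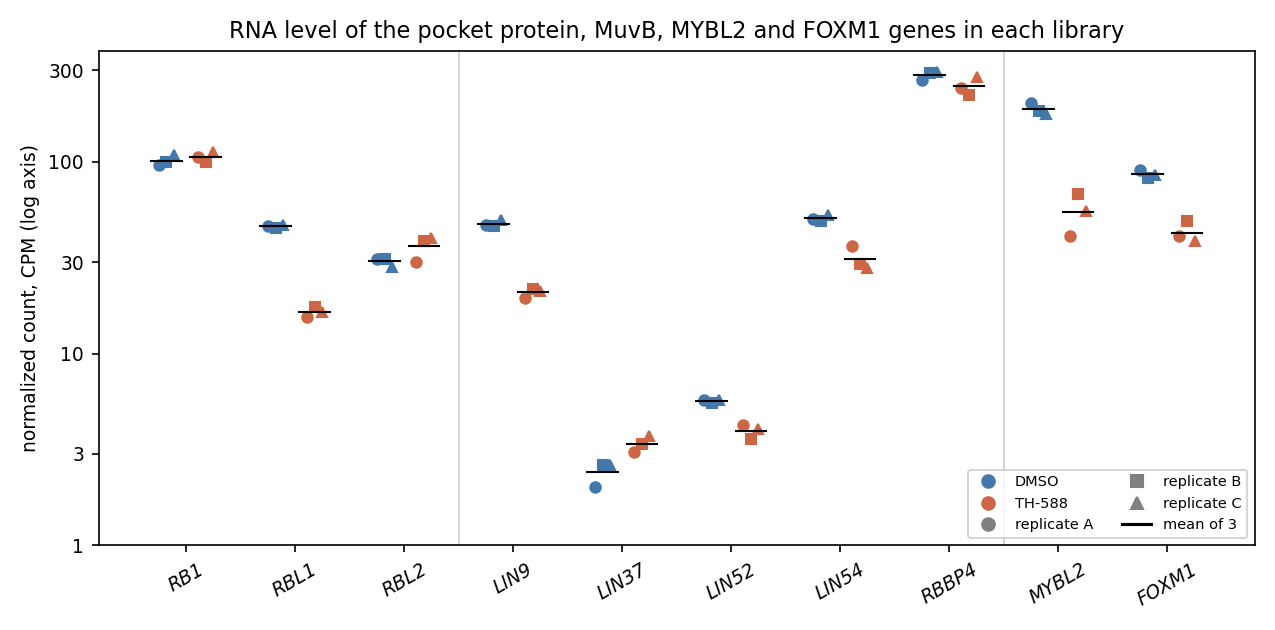
Normalized count in CPM (y axis, log scale) of each gene in the 3 DMSO and 3 TH-588 libraries, with each replicate as a point and the group mean as a bar. The MYBL2 points lie between 177 and 203 CPM with DMSO and between 41.2 and 67.7 CPM with TH-588, while those of RB1, RBL2 and RBBP4 overlap between the groups.

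Of the pocket proteins, RBL1 fell, while RB1 and RBL2 did not pass the test. RB1 (ENSG00000139687, chromosome 13, 48303726 to 48599436, GRCh38), the retinoblastoma protein that restrains the activating E2Fs, was at 96.5, 100 and 108 CPM in the DMSO libraries and at 106, 100 and 113 CPM in the TH-588 libraries. The groups overlapped. Its log2 fold change was 0.07 (95% interval -0.11 to 0.24, edgeR adjusted p = 0.536).

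RBL1 (ENSG00000080839, chromosome 20, 36996349 to 37095995), the p107 protein that is itself made mostly in cycling cells, was at 46.1, 45.3 and 47.0 CPM with DMSO and at 15.6, 17.5 and 16.4 CPM with TH-588. All 3 TH-588 libraries lay far below all 3 DMSO libraries, and the spread within each group was small. The fall was 2.79-fold, with a log2 fold change of -1.48 (SE 0.08, edgeR adjusted p = 8.92e-08). Of all genes tested, 1.5% had a lower log2 fold change.

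RBL2 (ENSG00000103479, chromosome 16, 53433977 to 53491649), the p130 protein that is the main pocket protein of DREAM in resting cells, was at 31.2, 31.1 and 28.4 CPM with DMSO and at 29.9, 38.6 and 40.3 CPM with TH-588. Replicates B and C of TH-588 were above every DMSO library and replicate A was among them. The log2 fold change was 0.27 (95% interval 0.03 to 0.51, edgeR adjusted p = 0.0606), which did not pass. Without TH-588 replicate A, the shallow library, the log2 fold change was 0.40 and passed. With any other single library left out it was between 0.21 and 0.31 and did not pass. Exons of AKTIP and of another gene on the opposite strand cover 18.2% of the RBL2 exon bases. AKTIP was at 6.75 ± 0.497 and 6.37 ± 0.463 CPM (SD, n = 3 each).

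Per length of exon, RB1 made up 57.1% ± 1.7 of the pocket protein counts with DMSO and 68.2% ± 2.8 with TH-588 (SD, n = 3 each). The share of RBL1 was 28.0% ± 0.6 with DMSO and 11.4% ± 0.9 with TH-588. That of RBL2 was 14.9% ± 1.2 and 20.4% ± 2.4. Shares add up to a fixed total, so the fall of RBL1 raises those of RB1 and RBL2. The ratio of RBL2 to RBL1, per length, was 0.55, 0.559 and 0.492 in the DMSO libraries and 1.56, 1.80 and 2.00 in the TH-588 libraries. RBL1 was thus the more abundant of the pair in every DMSO library and RBL2 in every TH-588 library. The ratio was 3.34-fold higher after TH-588 (exact two-sided permutation test, p = 0.1, the smallest that 3 against 3 libraries can give).

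**Figure D3:**
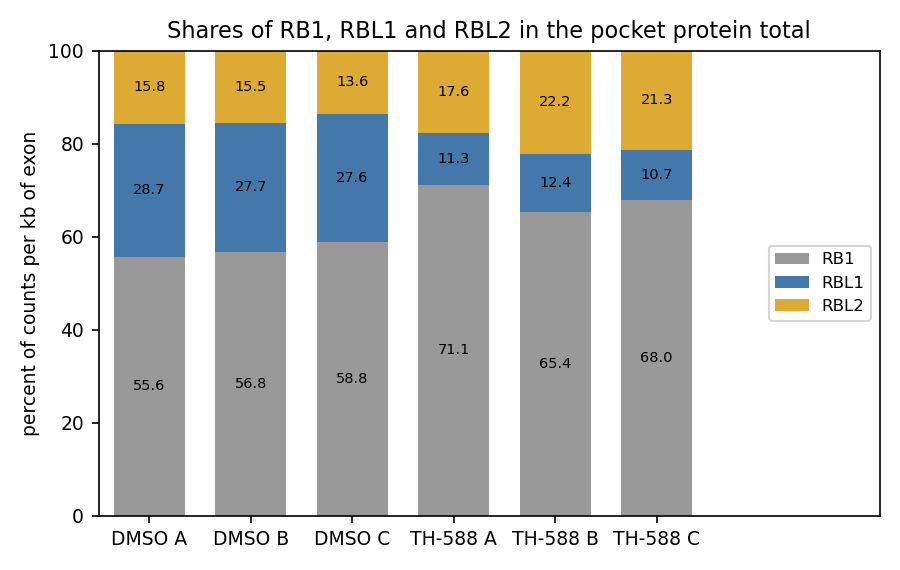
Share of RB1, RBL1 and RBL2 in the sum of their counts per kb of exon (y axis, percent) in each of the 6 libraries (bars). The RBL1 share is between 27.6% and 28.7% with DMSO and between 10.7% and 12.4% with TH-588.

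In the MuvB core, LIN9, LIN52 and LIN54 fell, LIN37 rose and RBBP4 did not pass. The median log2 fold change of the 5 genes was -0.53. LIN9 (ENSG00000183814, chromosome 1, 226231149 to 226309869) is a subunit of the MuvB core. It was at 46.6, 46.4 and 49.9 CPM with DMSO and at 19.5, 21.8 and 21.2 CPM with TH-588. The groups were well apart, and the fall was 2.28-fold (log2 fold change -1.19, SE 0.08, edgeR adjusted p = 4.22e-07).

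LIN54 (ENSG00000189308, chromosome 4, 82909973 to 83012926), the subunit that binds the CHR in DNA, was at 50.3, 49.3 and 53.1 CPM with DMSO and at 36.4, 29.2 and 27.9 CPM with TH-588. The groups did not overlap, and TH-588 replicate A was the highest of its group. The log2 fold change was -0.72 (SE 0.10, edgeR adjusted p = 1.05e-04).

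LIN52 (ENSG00000205659, chromosome 14, 74084796 to 74201235), the subunit whose phosphorylation by DYRK1A lets the core bind a pocket protein, was at 5.73, 5.53 and 5.75 CPM with DMSO and at 4.22, 3.59 and 4.03 CPM with TH-588. The groups did not overlap. The log2 fold change was -0.53 (SE 0.13, edgeR adjusted p = 0.0044).

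LIN37 (ENSG00000267796, chromosome 19, 35748361 to 35754519), a subunit needed for DREAM to repress, had the lowest CPM of the members in both groups, not divided by length, at 2.00, 2.62 and 2.63 CPM with DMSO and at 3.06, 3.36 and 3.71 CPM with TH-588. Its lowest count was 82 reads, in TH-588 replicate A. The log2 fold change was 0.49 (SE 0.17, edgeR adjusted p = 0.0288). It no longer passed without DMSO replicate A (0.40), without TH-588 replicate B (0.50) or without TH-588 replicate C (0.44). Exons of 2 other genes cover 54.0% of the LIN37 exon bases, and both were near 0, so its count is uncertain where such reads were shared or dropped.

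RBBP4 (ENSG00000162521, chromosome 1, 32651142 to 32686211), a histone-binding protein that also serves in other chromatin complexes, was at 268, 292 and 296 CPM with DMSO and at 244, 224 and 276 CPM with TH-588. The groups overlapped through TH-588 replicate C. The log2 fold change was -0.20 (SE 0.09, edgeR adjusted p = 0.0851), and without TH-588 replicate C it was -0.27 and passed. SYNC, on the other strand, covers 18.0% of the RBBP4 exon bases and was at 0.382 ± 0.119 and 0.837 ± 0.277 CPM (SD, n = 3 each). RBBP7, the close paralog of RBBP4, was at 129, 130 and 134 CPM with DMSO and at 97.4, 83.1 and 81.1 CPM with TH-588. The ratio of RBBP4 to RBBP7, per length, was 1.62, 1.75 and 1.73 with DMSO and 1.96, 2.10 and 2.66 with TH-588 (exact two-sided permutation test, p = 0.1).

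Within the MuvB core without the shared RBBP4, LIN9 made up 52.0% ± 0.1 of the counts per length with DMSO and 40.7% ± 3.5 with TH-588 (SD, n = 3 each). The LIN37 share was 4.1% ± 0.6 and 10.4% ± 1.3. Exons of other genes cover 54.0% of the LIN37 exon bases, so the size of its share is uncertain. The LIN52 share was 7.4% ± 0.2 and 9.2% ± 0.6, although LIN52 itself fell. Shares add up to a fixed total, so the fall of LIN9 raises the other shares, and that of LIN54 raises those of LIN37 and LIN52. LIN37 also rose itself. The LIN54 share was 36.4% ± 0.3 and 39.7% ± 4.4, a difference within the spread of the TH-588 libraries.

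MYBL2 and FOXM1, the activators that use MuvB, both fell. MYBL2 (ENSG00000101057, chromosome 20, 43667019 to 43716496), the Myb protein of S phase and G2, was at 203, 184 and 177 CPM with DMSO and at 41.2, 67.7 and 55.5 CPM with TH-588. The groups were far apart, and the TH-588 libraries spread more than the DMSO libraries. The coefficient of variation was 24.2% with TH-588 and 7.3% with DMSO. The fall was 3.42-fold, with a log2 fold change of -1.77 (SE 0.15, edgeR adjusted p = 1.24e-06), and 0.6% of all genes tested had a lower log2 fold change.

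FOXM1 (ENSG00000111206, chromosome 12, 2857681 to 2877155), a forkhead factor that activates genes of mitosis, was at 90.8, 82.8 and 85.1 CPM with DMSO and at 41.0, 48.9 and 38.5 CPM with TH-588. The groups did not overlap. The fall was 2.01-fold (log2 fold change -1.01, SE 0.10, edgeR adjusted p = 4.59e-06). Exons of ITFG2, on the other strand, cover 15.9% of the FOXM1 exon bases. ITFG2 was at 10.2 ± 0.604 and 9.68 ± 0.460 CPM (SD, n = 3 each).

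The ratio of FOXM1 to MYBL2, per length, was 0.253, 0.255 and 0.273 with DMSO and 0.564, 0.409 and 0.393 with TH-588. MYBL2 thus fell further than FOXM1 in every TH-588 library, and the ratio was 1.73-fold higher (exact two-sided permutation test, p = 0.1). The ratio of RBL2 to MYBL2 was 0.0581, 0.0642 and 0.0609 with DMSO and 0.275, 0.216 and 0.276 with TH-588. That ratio was 4.16-fold higher (exact two-sided permutation test, p = 0.1). MYBL2 fell 3.42-fold, while RBL2 did not pass the test. These are ratios of RNA, and the complexes were not measured.

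**Figure D4:**
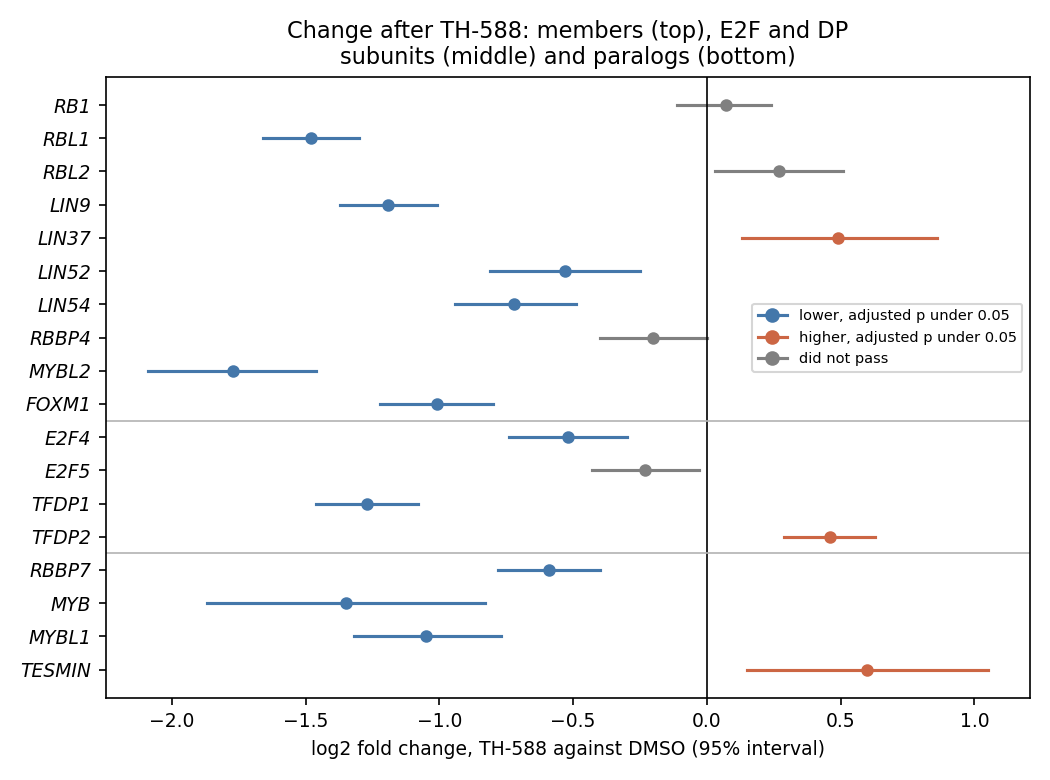
Log2 fold change of TH-588 against DMSO (x axis; points) with its 95% interval (lines) for the 10 members, the E2F and DP subunits and the paralogs, coloured by the edgeR call. MYBL2 at -1.77 and RBL1 at -1.48 lie farthest to the left among the members, and the intervals of RB1 and RBBP4 reach 0.

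Ordered by level, as CPM per kb of exon, MYBL2 was the most abundant member with DMSO at 67.7 ± 4.94, followed by RBBP4 at 30.1 ± 1.59, FOXM1 at 17.6 ± 0.842 and RB1 at 15.8 ± 0.931 (SD, n = 3 each). LIN9 at 10.7 ± 0.433, RBL1 at 7.75 ± 0.141 and LIN54 at 7.52 ± 0.288 came next, and the ranges of RBL1 and LIN54 overlapped. RBL2 at 4.13 ± 0.216, LIN52 at 1.54 ± 0.0341 and LIN37 at 0.856 ± 0.128 were the lowest. The other neighbours in this order did not overlap in range. Exons of other genes cover 54.0% of the LIN37 exon bases, so its level per length and its place beside LIN52 are uncertain.

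With TH-588 the order was different. RBBP4 at 26.2 ± 2.79, MYBL2 at 19.7 ± 4.78 and RB1 at 16.5 ± 1.02 CPM per kb came on top (SD, n = 3 each), and the ranges of RBBP4 and MYBL2, and of MYBL2 and RB1, overlapped. FOXM1 followed at 8.73 ± 1.11. RBL2 at 4.95 ± 0.764, LIN9 at 4.69 ± 0.263 and LIN54 at 4.6 ± 0.675 overlapped in range, above RBL1 at 2.77 ± 0.159. LIN37 at 1.2 ± 0.116 and LIN52 at 1.07 ± 0.0870, which were lowest, overlapped too. The place of LIN37 is uncertain here as well, because of its overlapped exons.

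Among the E2F and DP subunits of DREAM, E2F4 and TFDP1 fell, TFDP2 rose and E2F5 did not pass, with a median log2 fold change of -0.37. TFDP1, the main DP partner of E2Fs, was at 183, 169 and 177 CPM with DMSO and at 66.3, 80.9 and 71.8 CPM with TH-588, a log2 fold change of -1.27 (edgeR adjusted p = 4.03e-07). E2F4, the usual E2F of DREAM, had a log2 fold change of -0.52 (edgeR adjusted p = 9.63e-04). TFDP2, the other DP partner, was at 31.7, 30.2 and 33.0 CPM with DMSO and at 42.4, 44.1 and 44.2 CPM with TH-588, a log2 fold change of 0.46 (edgeR adjusted p = 4.05e-04).

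Of the paralogs of members, RBBP7, MYB and MYBL1 fell, by log2 fold changes of -0.59, -1.35 and -1.05, and TESMIN, a relative of LIN54, rose by 0.60. MYB and TESMIN were low, at 1.81 ± 0.262 and 1.77 ± 0.230 CPM with DMSO (SD, n = 3 each). The call of TESMIN (edgeR adjusted p = 0.0286) was lost without DMSO replicate B, TH-588 replicate A or TH-588 replicate B.

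Of 12 kinases, cyclins and inhibitors that act on pocket proteins and DREAM, 11 were tested, of which 6 fell and 1 rose, beside 25.3% lower and 24.2% higher calls among all genes. CDKN1A, which encodes the kinase inhibitor p21, rose from 5.72, 5.50 and 4.84 CPM with DMSO to 112, 158 and 149 CPM with TH-588, a log2 fold change of 4.71 (edgeR adjusted p = 1.88e-09). The cyclins that drive entry into and passage through S phase were lower, with log2 fold changes of -2.06 for CCNE2, -1.58 for CCNA2 and -1.05 for CCNE1. The kinases CDK2 and CDK4 fell by 0.86 and 0.68 on the log2 scale, and the D cyclin CCND3 by 0.69. DYRK1A, the LIN52 kinase, had a log2 fold change of -0.14 (edgeR adjusted p = 0.251) and passed, at -0.23, without TH-588 replicate A. The genes CDKN1B, CCND1 and CCND2 had log2 fold changes of 0.04, 0.06 and 0.05, none past the threshold. CDK6 was near 0 and was not tested.

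The genes that these factors regulate were lower throughout the lists. All 33 G1/S targets of E2F and DREAM fell, the log2 fold changes having a median of -1.28 and a range of -2.15 to -0.70. The largest falls were those of E2F2 at -2.15, the replication licensing gene CDC6 at -1.95, MCM10 at -1.94 and the ribonucleotide reductase subunit RRM2 at -1.94. All 42 G2/M targets of DREAM, MYBL2-MuvB and FOXM1 fell, with a median of -1.11 and a range of -1.86 to -0.25, and 41 of them did not overlap between the groups, beside 57.7% of all genes. The alternatives called 37 to 41 of these 42 genes lower, with 37 when only library size was scaled for, and none higher. CDK1 at -1.86, TOP2A at -1.49, UBE2C at -1.45 and KIF4A at -1.44 had the largest falls among those whose mean log2 CPM reached 2. PRC1, just under that level and named after its value was seen, was at -1.51. Lower calls made up 25.3% of all genes tested. The lists were written with earlier results of these data known.

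**Figure D5:**
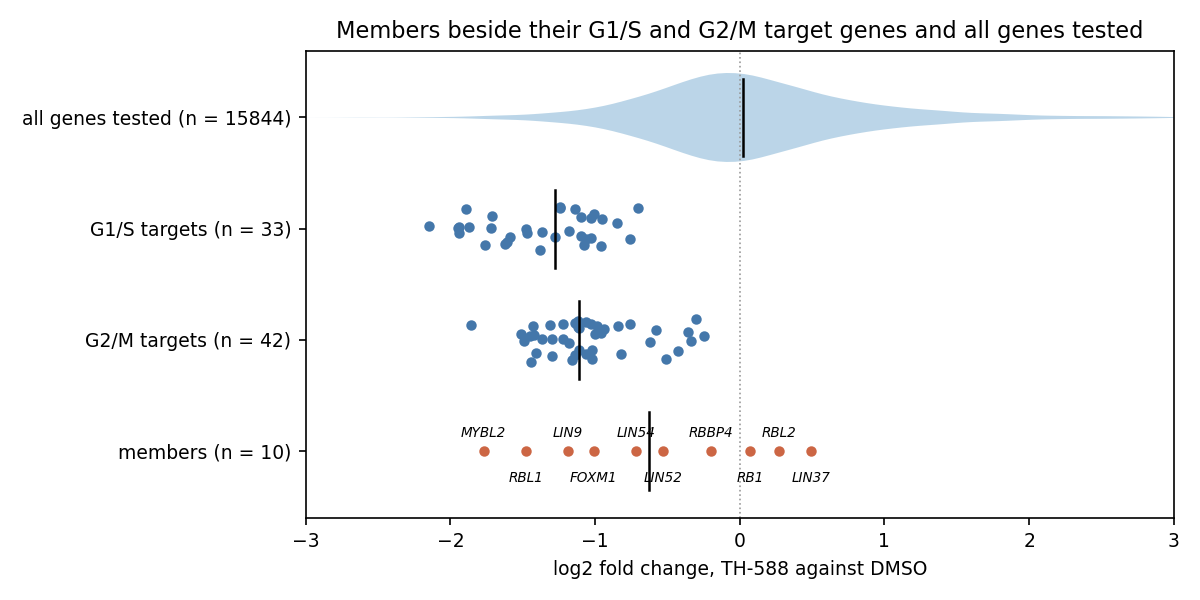
Log2 fold change of TH-588 against DMSO (x axis) of the 10 members and the 33 G1/S and 42 G2/M targets (points), beside the distribution of all 15844 genes tested (shaded, leaving out 131 genes beyond 3 in either direction), with medians as vertical lines. Every target point lies left of 0, while the members spread from -1.77 to 0.49.

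Genes whose level followed a member most closely over the 6 libraries were sought among 9761 genes, by the distance between centred log2 CPM values. Nearest to RBL1 were NCAPG2 and SPC25, which act on mitotic chromosomes, and ZNF180, at distances of 0.08, 0.09 and 0.09. Nearest to FOXM1 were ALYREF, PARP1 and POLE, at 0.07, 0.08 and 0.08. The genes nearest to MYBL2 were farther from it, with TIAM1 at 0.14, the linker histone gene H1-3 at 0.18 and the cohesin regulator CDCA5 at 0.24. Nearest to RBL2 were MZT2A, ALDH5A1 and RNPEP, at 0.11, 0.11 and 0.12. The distances run over both groups and so include the difference between them.

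Some members share a start region with a gene on the other strand. TULP3 begins 68 bases from the FOXM1 start and rose, from 31.4 ± 1.4 to 42.0 ± 2.88 CPM (log2 fold change 0.42, edgeR adjusted p = 0.00132), while FOXM1 fell. RHNO1 begins 897 bases from the FOXM1 start and had a log2 fold change of -0.19 (edgeR adjusted p = 0.393). ALDH6A1 begins 303 bases from the LIN52 start and rose by 0.93 on the log2 scale (edgeR adjusted p = 2.2e-05), while LIN52 fell. ZBTB8OS begins 239 bases from the RBBP4 start and fell by 0.49 on the log2 scale (edgeR adjusted p = 0.00141). RB1-DT, 65 bases from the RB1 start, had no counts.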

How the data were processed

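RNA from A2780 cells was prepared on columns with DNase digestion, and libraries were made with a TruSeq RNA kit, which does not mark strand. The authors aligned reads to GRCh38 with TopHat and deposited raw counts per gene from featureCounts 1.4.6, without normalization; their own comparison used DESeq2. They also deposited each gene's exon length in bases. How reads of overlapping genes or repeated matches were counted is not given in the sources used here. The methods name UCSC gene models, but the table carries Ensembl identifiers, of which 57754 of 58336 matched a symbol. All 10 members lie at the same place in GENCODE's GRCh38 annotation.

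Counts were compared with edgeR 4.0.16 in R 4.3.3 (TMM, filterByExpr, quasi-likelihood test, no replicate term), with Benjamini-Hochberg adjustment over 15844 genes and a threshold of 0.05. Standard errors are the log2 fold change over the square root of F. The alternatives were limma-voom (limma 3.58.1) or DESeq2 1.42.0 as the test, scaling by DESeq2's size factors or by library size alone, no filter or a minimum of 10 counts per library, leaving out a library, the replicate letter as a block, an adjusted p under 0.01 and, for ratios, no division by length. The procedure was tested on simulated data with few changed genes, unlike these data, where 49.6% of genes were called. Floors of 3 counts were 0.0276 to 0.112 CPM, for counting error only.

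The members, gene lists, motifs and named genes were chosen with earlier results of these data known. Named were all members, the subunits, paralogs and kinase lists, the 4 largest falls and up to 2 largest rises among called targets (mean log2 CPM of at least 2, groups not overlapping), the 3 nearest patterns of FOXM1, MYBL2, RBL1 and RBL2, and genes overlapping a member's exons or starting within 1000 bases on the other strand. Replicate letters mark independent experiments within a treatment, but same-lettered samples did not deviate together (correlations -0.07, -0.08 and 0), so no pairing was assumed. Replicates differed by more than sampling noise, and each library was counted as 1 replicate.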

Additional observations from a re-analysis of the deposited data

How the results depend on the processing

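The count of 6 members called lower was 6 in every alternative except without TH-588 replicate C, where it was 7 with RBBP4. The members called higher numbered 2 in place of 1 with no filter, with at least 10 counts in every library and with limma-voom, as RBL2 passed in addition, and 0 at an adjusted p under 0.01, and ran from 0 to 2 with each library left out. The paralogs called higher numbered 0 in place of 1 at an adjusted p under 0.01, and ran from 0 to 1 with each library left out. With the replicate letter as a block, 7195 of all genes were called against 7852, and members called lower and higher stayed at 6 and 1; among the named genes it changed only the call of RNPEP, which was lost (0.25), and 41 of the 42 G2/M targets were called lower. Among genes with no call in the report, values turned sign as follows, and the cause was not tested: CDKN1B to -0.04 without TH-588 replicate B (range -0.04 to 0.15), CCND1 to -0.00 without DMSO replicate B and -0.04 without TH-588 replicate B (range -0.04 to 0.18), and AKTIP and ITFG2 to 0.02 each with library size only. Library size only moved the median of all genes to 0.126 and the higher share of calls to 60.4%, against 0.019 and 48.9%; the median was 0.141 with no filter, over 25695 genes. The ratios kept their direction in all alternatives. With 3 libraries a group, small changes such as those of RBL2, RBBP4 and LIN37 lie near the threshold.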
